A study of Homo sapiens with 12 samples.

Results

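DUSP4, DUSP5, DUSP6, SPRY1, SPRY2, SPRY4, SPRED1, SPRED2, ETV4 and ETV5 are the genes through which ERK signalling limits and transmits its own activity. They were taken by name from a table of 26441 genes measured by RNA-Seq, and all 10 were listed there. ERK is the last kinase of a cascade in which a growth factor receptor activates RAS, RAS activates RAF, RAF activates MEK, and MEK phosphorylates ERK. Active ERK switches on genes that act back on the cascade: dual-specificity phosphatases (DUSP) take the phosphates off ERK, Sprouty proteins (SPRY) and their SPRED relatives restrain the step from receptor to RAF, and ETV4 and ETV5 are ETS transcription factors that carry the signal on to further genes. The RNA of these genes is widely used as a readout of ERK output, and ETV family genes are also known from translocations in prostate cancer.

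The cells were LNCaP-EnzR and C4-2B-EnzR, human prostate cancer lines made resistant to the androgen receptor inhibitor enzalutamide and kept in it, at 2 uM for LNCaP-EnzR and 10 uM for C4-2B-EnzR. Each line was infected with lentivirus carrying a hairpin against CXCR7 (shCXCR7) or the control vector pLKO (LKO), and RNA was taken 4 days later. The 12 libraries fall into 4 groups of 3: C4-2B-EnzR shCXCR7, C4-2B-EnzR LKO, LNCaP-EnzR shCXCR7 and LNCaP-EnzR LKO. Since each line had its own enzalutamide dose, line and dose cannot be told apart in any comparison of the lines. The sample titles also carry a different P number for each line, whose meaning is not given. CXCR7, named ACKR3 in the table, is an atypical chemokine receptor that signals through beta-arrestin. The labels, which call the resistant lines MDVr, do not say whether replicates were grown apart. The labels give 3 libraries in each C4-2B-EnzR group, whereas the study's text speaks of duplicates for that line, and all labelled libraries were used. The p-values therefore speak only of the scatter among these libraries, which may be technical.

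Values are RPKM (reads per kilobase of gene, scaled to the size of the library), divided by median-of-ratios factors of the 6 libraries of a line. Reads within genes, computed from the steps between RPKM values, numbered from 6382001 to 9834301 per library. LNCaP-EnzR shCXCR7 replicate 3 stood apart: 27.4% of the reads in its denominator were in genes, against 67% to 75.5% in the other 11 libraries, and 1636 genes were at 0 there, against 8719 to 9652 elsewhere. The 3685 genes at 0 in all 11 other libraries had a median of 0.670 rescaled RPKM in it, so a gene near that level cannot be told apart from background in this library. Summed markers of blood cells came to 7.07 in that library and 0.113 to 0.589 in the other 11, those of basal epithelium to 5.55 and 0.0121 to 0.248, and those of embryonic kidney cells to 2.61 and 0.0216 to 1.55. Sums for fibroblasts (9.18) and neuroendocrine cells (11.1) lay within the range of the other 11 libraries, which spans both lines. Within its own line the fibroblast sum was raised, with 3.559 to 3.915 in LNCaP-EnzR LKO libraries. C4-2B-EnzR LKO libraries had 9.293 to 12.15. The part of these markers in the results was not tested. The 12 markers of luminal cells and the LNCaP lineage were above 0 in every group, with sums of 589.1 in that library and 693.3 to 1050.0 in the others. ACKR3 had 22.3, 23.7 and 19.0 rescaled RPKM in C4-2B-EnzR shCXCR7 libraries, against 84.0, 86.5 and 85.6 in C4-2B-EnzR LKO libraries. In LNCaP-EnzR cells it had 55.7, 50.5 and 42.1 in shCXCR7 libraries, against 122, 117 and 111 in LKO libraries. The targeted RNA was lower in both lines without overlap, with log2 fold changes of -1.97 ± 0.09 (SE) for C4-2B-EnzR and -1.24 ± 0.11 for LNCaP-EnzR, and the fall was larger in C4-2B-EnzR cells (difference -0.73 ± 0.14, adjusted p = 0.00574, limma with Benjamini-Hochberg adjustment). On values as deposited that difference was -0.35 ± 0.55 and not called (adjusted p = 0.801), and the LNCaP-EnzR change was not called either (adjusted p = 0.112).

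SPRY1, SPRED1, DUSP5 and ETV4 were lower in C4-2B-EnzR cells with shCXCR7 than with LKO. DUSP4 was lower in LNCaP-EnzR cells with shCXCR7, and no other feedback gene passed the test with all 6 libraries. Of the 10 genes, 6 passed the filter in each line (a rescaled RPKM of 0.5 or more in 3 or more libraries of the line), and genes were called at an adjusted p under 0.05 over all genes tested. In C4-2B-EnzR cells 4 of these 6 were called, all of them lower, where 21.3% of 13347 genes tested were called lower and 21.2% higher. In LNCaP-EnzR cells 1 of 6 was called, lower, where 21.3% of 13073 genes tested were called lower and 19.4% higher. The median log2 fold change of the tested feedback genes was -0.66 in C4-2B-EnzR cells (all genes tested, -0.001) and -0.33 in LNCaP-EnzR cells (all genes tested, 0.012). The LNCaP-EnzR count moved with the library that stood apart: without shCXCR7 replicate 3, 3 of the 6 genes were called lower (DUSP4, DUSP5 and SPRED1) and 1 higher (SPRY2), where 23.9% of 12837 genes were called lower and 22.6% higher. In LNCaP-EnzR cells SPRED1 and DUSP5 passed the filter through their LKO libraries and SPRY2 through its shCXCR7 libraries, so the filter favoured these directions. Fold changes throughout are on log2(RPKM + 0.25), which understates the change of low genes.

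**Figure D1:**
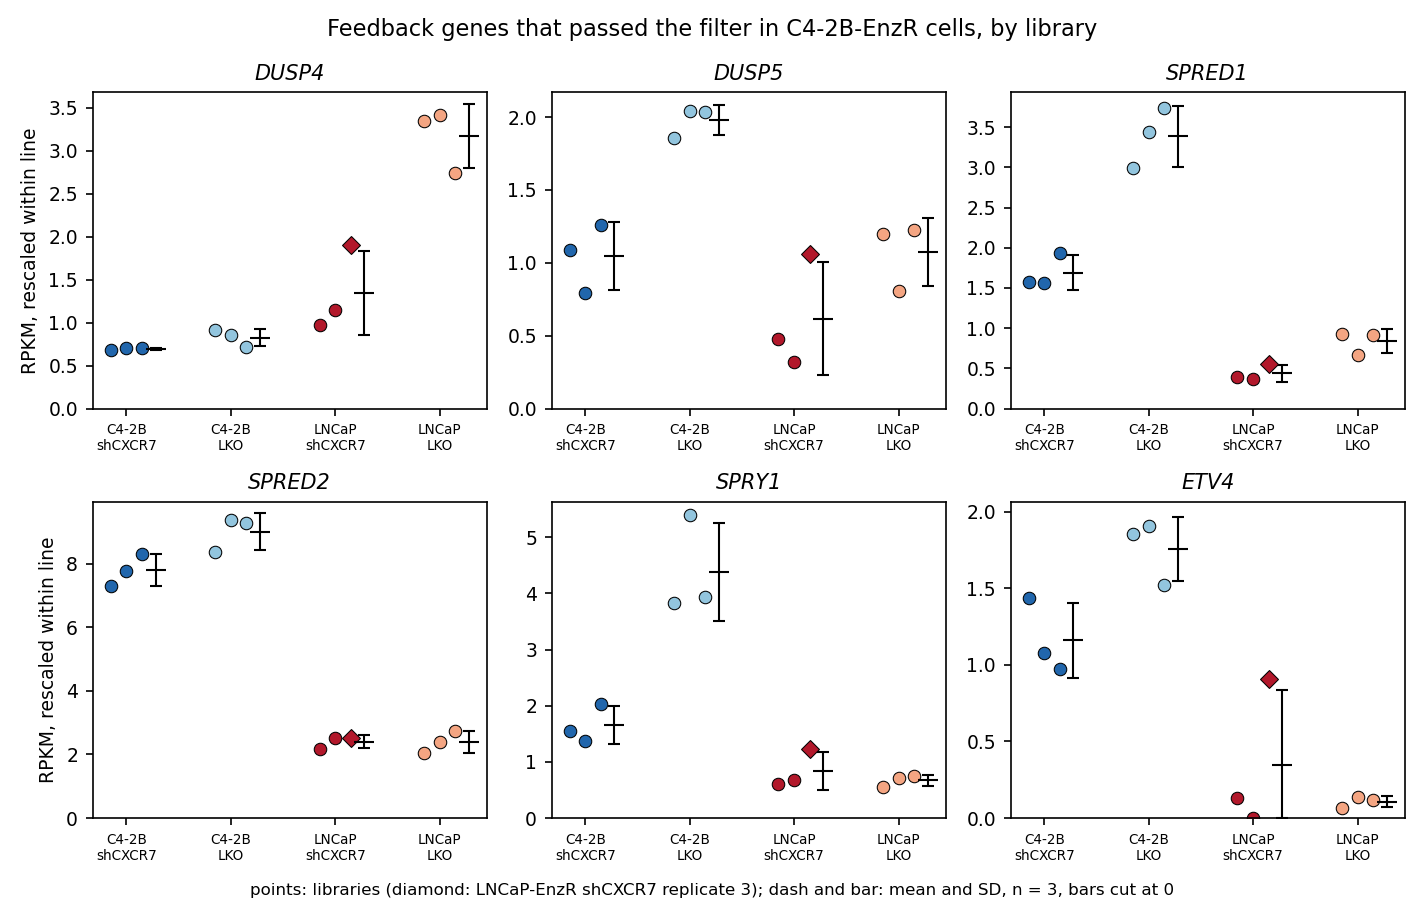
Rescaled RPKM of the 6 feedback genes that passed the filter in C4-2B-EnzR cells, with 1 point per library and the mean and SD (n = 3) beside each group, shCXCR7 left of LKO in each line. All 6 sit lower in C4-2B-EnzR shCXCR7 libraries than in LKO libraries without overlap, though SPRED2 and DUSP4 by little, and these were not called. DUSP4 and SPRED1 do so in LNCaP-EnzR cells, where SPRED1 was not called. How many of all genes separate in this way was not counted. LNCaP-EnzR shCXCR7 replicate 3 (diamond) is the highest of its group for all 6.

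Of the feedback genes tested, SPRY1 in C4-2B-EnzR cells had the log2 fold change of shCXCR7 over LKO farthest from 0 with all libraries. It encodes an inhibitor of receptor signalling to RAS and RAF, and it lies at chr4:123396795-123403760 (GRCh38, plus strand, GENCODE 44). It had 1.55, 1.38 and 2.04 rescaled RPKM in C4-2B-EnzR shCXCR7 libraries, against 3.82, 5.39 and 3.93 in LKO libraries. Each shCXCR7 library was below every LKO library, and the log2 fold change was -1.28 ± 0.18 (SE, adjusted p = 0.000957). In LNCaP-EnzR cells SPRY1 had lower levels, with 0.607, 0.669 and 1.23 rescaled RPKM in shCXCR7 libraries, against 0.560, 0.712 and 0.749 in LKO libraries. These groups overlapped, and the log2 fold change was 0.20 ± 0.32 (SE, adjusted p = 0.661), or -0.05 ± 0.20 without shCXCR7 replicate 3. The response differed between the lines by -1.48 ± 0.32 on the log2 scale (C4-2B-EnzR minus LNCaP-EnzR, adjusted p = 0.00939). That difference was called after each of the 12 libraries was left out in turn, and was not called on values as deposited (adjusted p = 0.199) or after quantile normalization (-0.77 ± 0.39, adjusted p = 0.216).

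SPRED1, which brings the RAS inhibitor neurofibromin to the membrane, lies at chr15:38252836-38357249 on the plus strand. It had 1.57, 1.57 and 1.94 rescaled RPKM in C4-2B-EnzR shCXCR7 libraries, against 2.99, 3.44 and 3.74 in LKO libraries. The groups were apart by more than their spread, with a log2 fold change of -0.91 ± 0.13 (SE, adjusted p = 0.00128). LNCaP-EnzR cells had 0.391, 0.365 and 0.556 rescaled RPKM in shCXCR7 libraries, against 0.926, 0.665 and 0.920 in LKO libraries. These groups did not overlap either, but the log2 fold change of -0.66 ± 0.33 was not called (adjusted p = 0.140). Without shCXCR7 replicate 3, where the value of SPRED1 was below the background of that library, it was -0.81 ± 0.22 and called (adjusted p = 0.0183). No difference of the SPRED1 response between the lines was detectable (difference -0.24 ± 0.25, adjusted p = 0.560).

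The start regions of SPRY1 and SPRED1 are shown because both genes fell in C4-2B-EnzR cells while their responses in LNCaP-EnzR cells were read at low levels. Each stretch runs from 250 bases before to 50 bases after the RefSeq start (GRCh38.p14, plus strand), with every CG dinucleotide in capitals.
SPRY1, chr4:123396545-123396844: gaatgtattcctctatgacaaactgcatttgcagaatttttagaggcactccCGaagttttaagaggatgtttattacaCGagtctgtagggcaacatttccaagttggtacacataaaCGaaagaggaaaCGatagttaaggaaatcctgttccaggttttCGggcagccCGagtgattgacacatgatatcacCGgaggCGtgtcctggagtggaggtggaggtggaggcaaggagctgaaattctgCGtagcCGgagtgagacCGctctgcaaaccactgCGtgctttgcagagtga
SPRED1, chr15:38252586-38252885: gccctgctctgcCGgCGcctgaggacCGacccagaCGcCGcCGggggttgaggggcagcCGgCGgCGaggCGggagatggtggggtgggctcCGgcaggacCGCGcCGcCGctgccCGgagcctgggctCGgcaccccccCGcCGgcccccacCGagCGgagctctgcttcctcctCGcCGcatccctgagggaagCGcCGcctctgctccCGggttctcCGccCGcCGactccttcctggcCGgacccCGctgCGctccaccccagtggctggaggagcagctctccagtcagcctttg
The SPRY1 window had 47.7% G or C and 12 CG dinucleotides, and the SPRED1 window had 76.3% and 32, where the median of 35116 windows was 58.7% and 14. RefSeq windows were matched for 6 of the 10 genes (DUSP6, SPRY1, SPRY2, SPRY4, SPRED1 and SPRED2). None of the 6 held, on either strand, an ETS match (CCGGAAG, in 10.3% of all windows), a cyclic AMP response element (TGACGTCA, 1.85%), an AP-1 match (TGANTCA, 7.71%), an E2F match (TTTCGCGC, 0.515%) or a TATA box (TATAAA, 11.5%). This says only that these letters are absent from these windows.

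SPRED2, a relative of SPRED1, had the highest rescaled RPKM of the feedback genes in C4-2B-EnzR cells. It had 7.30, 7.77 and 8.31 in C4-2B-EnzR shCXCR7 libraries, against 8.35, 9.38 and 9.29 in LKO libraries. The groups did not overlap, but the log2 fold change of -0.20 ± 0.09 was not called (SE, adjusted p = 0.0920), and leaving out LKO replicate 1 brought it past the threshold (adjusted p = 0.0373). LNCaP-EnzR cells had 2.17, 2.52 and 2.53 in shCXCR7 libraries, against 2.05, 2.39 and 2.75 in LKO libraries, with a log2 fold change of 0.01 ± 0.13 (adjusted p = 0.964).

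SPRY2, another Sprouty inhibitor, was the one feedback gene whose mean was higher in shCXCR7 than in LKO libraries of both lines. It had 0.707, 1.05 and 1.21 rescaled RPKM in LNCaP-EnzR shCXCR7 libraries (21, 36 and 45 reads), against 0.403, 0.557 and 0.231 in LKO libraries (9, 19 and 6 reads). The groups did not overlap, and the log2 fold change was 0.95 ± 0.35 (SE, adjusted p = 0.0562), or 0.86 ± 0.30 without shCXCR7 replicate 3 (adjusted p = 0.0479). With quantile normalization it was 0.28 ± 0.46 (adjusted p = 0.644). SPRY2 did not pass the filter in the C4-2B-EnzR line, where it had 0.845, 0.746 and 0.436 rescaled RPKM in shCXCR7 libraries (22, 18 and 11 reads), against 0.391, 0.391 and 0.300 in LKO libraries (10, 8 and 8 reads). With no filter the log2 fold change there was 0.58 ± 0.21 and was not called (adjusted p = 0.0983).

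**Figure D2:**
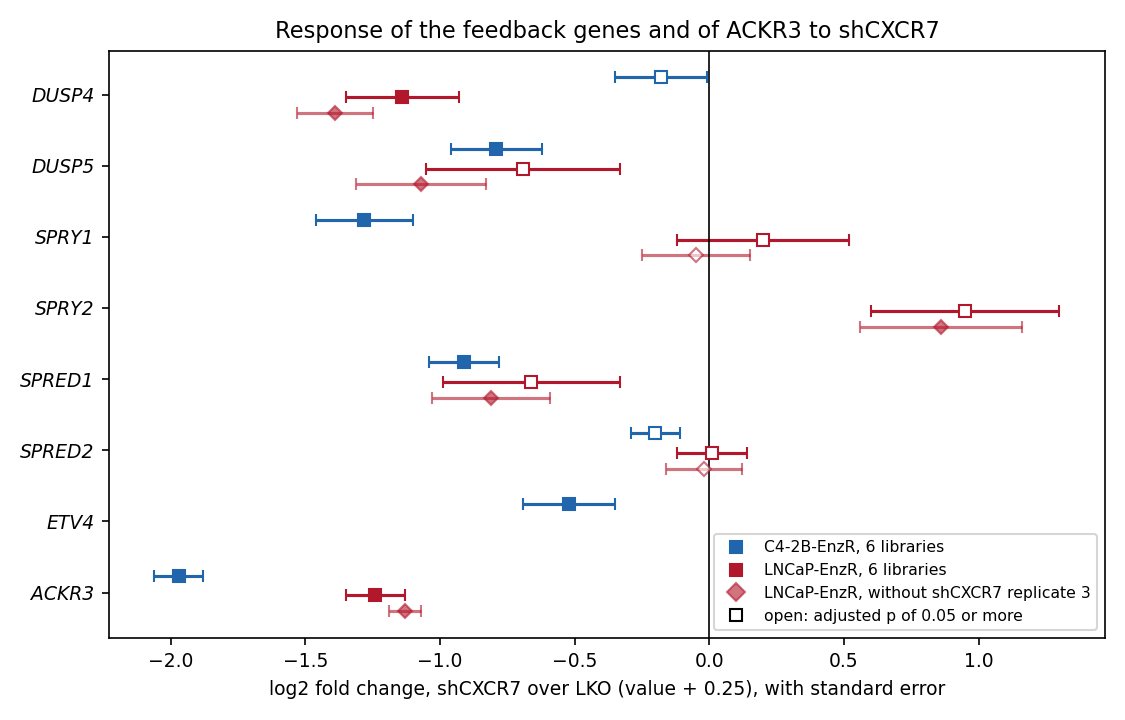
Log2 fold change of shCXCR7 over LKO, with its standard error, for the feedback genes that passed the filter in at least 1 line and for ACKR3; filled symbols have an adjusted p under 0.05. SPRY1 stands at -1.28 in C4-2B-EnzR and 0.20 in LNCaP-EnzR cells, DUSP4 at -0.18 and -1.14, and the diamonds give LNCaP-EnzR cells without shCXCR7 replicate 3; SPRY2 has no C4-2B-EnzR value and ETV4 no LNCaP-EnzR value, since they did not pass the filter there.

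Among the phosphatases, DUSP5 fell in C4-2B-EnzR cells and DUSP4 in LNCaP-EnzR cells. DUSP4, a nuclear phosphatase of ERK and other MAP kinases, lies at chr8:29333064-29350684 on the minus strand. It had 0.684, 0.703 and 0.707 rescaled RPKM in C4-2B-EnzR shCXCR7 libraries, against 0.910, 0.857 and 0.711 in LKO libraries. The nearest libraries of the groups were almost equal, and the log2 fold change of -0.18 ± 0.17 was not called (SE, adjusted p = 0.439). In LNCaP-EnzR cells DUSP4 had 0.977, 1.15 and 1.91 rescaled RPKM in shCXCR7 libraries, against 3.35, 3.41 and 2.74 in LKO libraries. All 3 shCXCR7 libraries were below all 3 LKO libraries, and the log2 fold change was -1.14 ± 0.21 (adjusted p = 0.0018), or -1.39 ± 0.14 without shCXCR7 replicate 3. The response differed between the lines by 0.96 ± 0.29 on the log2 scale (adjusted p = 0.0424). SPRY1 and DUSP4 were thus 2 of the 5 feedback genes tested in both lines whose response differed, where 13.9% of 12482 genes did. Without LNCaP-EnzR shCXCR7 replicate 3 the same 2 were called, where 12.7% of 12354 genes were. The DUSP4 call was close to the threshold: it was lost when any of 10 of the 12 libraries was left out (adjusted p up to 0.105), and it was kept without LNCaP-EnzR shCXCR7 replicate 3 (1.22 ± 0.21, adjusted p = 0.00449) or C4-2B-EnzR LKO replicate 1 (adjusted p = 0.0442). It was also lost as deposited (adjusted p = 0.107), with a pseudocount of 0.05 (adjusted p = 0.0563), with no filter (adjusted p = 0.0736) and with the replicate number as a block (adjusted p = 0.104).

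DUSP5, a nuclear phosphatase specific for ERK, lies at chr10:110497907-110511533 on the plus strand. It had 1.09, 0.795 and 1.26 rescaled RPKM in C4-2B-EnzR shCXCR7 libraries, against 1.86, 2.04 and 2.03 in LKO libraries. The groups did not overlap, and the log2 fold change was -0.79 ± 0.17 (SE, adjusted p = 0.00667). LNCaP-EnzR cells had 0.477, 0.317 and 1.06 in shCXCR7 libraries (17, 13 and 47 reads), against 1.20, 0.807 and 1.22 in LKO libraries (32, 33 and 38 reads). Replicates 1 and 2 of shCXCR7 were below every LKO library and replicate 3 was among them. The log2 fold change was -0.69 ± 0.36 with all 6 libraries (adjusted p = 0.154) and -1.07 ± 0.24 without replicate 3 (adjusted p = 0.00859). The difference between the lines was -0.11 ± 0.39 (adjusted p = 0.890), or 0.27 without that library.

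DUSP6, the cytoplasmic phosphatase of ERK and a common marker of its activity, was near the detection limit. It had 0.453, 0.361 and 0.345 rescaled RPKM in C4-2B-EnzR shCXCR7 libraries (19, 14 and 14 reads), against 0.340, 0.790 and 0.443 in LKO libraries (14, 26 and 19 reads). The groups overlapped, and DUSP6 did not pass the filter in either line. LNCaP-EnzR cells had 0.272, 0.163 and 1.29 in shCXCR7 libraries, against 0.251, 0.401 and 0.336 in LKO libraries, with the one high value in the library that stood apart. With no filter, neither log2 fold change was called (-0.24 ± 0.24 for C4-2B-EnzR and 0.27 ± 0.54 for LNCaP-EnzR cells, SE), and the LNCaP-EnzR value was -0.33 ± 0.20 without that library.

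Of the transcription factors, ETV4 passed the filter in C4-2B-EnzR cells only. It lies at chr17:43527844-43579620 on the minus strand. It had 1.44, 1.08 and 0.970 rescaled RPKM in C4-2B-EnzR shCXCR7 libraries (49, 34 and 32 reads), against 1.85, 1.91 and 1.52 in LKO libraries (62, 51 and 53 reads). The groups stood close but apart, and the log2 fold change was -0.52 ± 0.17 (SE, adjusted p = 0.0408). The call was lost when LKO replicate 1 or 2 or shCXCR7 replicate 2 or 3 was left out (adjusted p from 0.0829 to 0.124), and in 1 fit of all 12 libraries (adjusted p = 0.375), with no filter (adjusted p = 0.0805), as deposited (adjusted p = 0.0513) and with the replicate number as a block (adjusted p = 0.0504). In LNCaP-EnzR cells ETV4 had 5, 0 and 44 reads in shCXCR7 libraries, against 2, 6 and 4 in LKO libraries. The 0 allows up to 0.067 rescaled RPKM, the worth of 3 reads (counting error only), and the 44 reads (0.906 rescaled RPKM) came from the library that stood apart.

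ETV5 and SPRY4 had few reads in every library but that one. In C4-2B-EnzR cells ETV5 had 4, 1 and 2 reads in shCXCR7 libraries, against 6, 6 and 10 in LKO libraries. SPRY4, a further Sprouty inhibitor, had 4, 4 and 2 reads in shCXCR7 libraries, against 13, 8 and 8 in LKO libraries. For both genes every shCXCR7 library was below every LKO library, and with no filter both were called lower (ETV5 -0.45 ± 0.12, adjusted p = 0.0353; SPRY4 -0.42 ± 0.11, adjusted p = 0.0361), where 12.9% of 20219 genes were. These calls rest on 7 and 10 reads in all after shCXCR7. In LNCaP-EnzR shCXCR7 replicate 3 the same genes had 60 and 103 reads, against 4 to 6 and 4 to 16 in the other 5 libraries of that line. Exons of DUSP6, ETV4 and ETV5 overlap those of another gene in GENCODE 44 (DHX8 on the opposite strand for ETV4, DGKG on the same strand for ETV5), and whether reads were counted by strand is not given in the sources used here, so their reads are uncertain by that much.

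**Figure D3:**
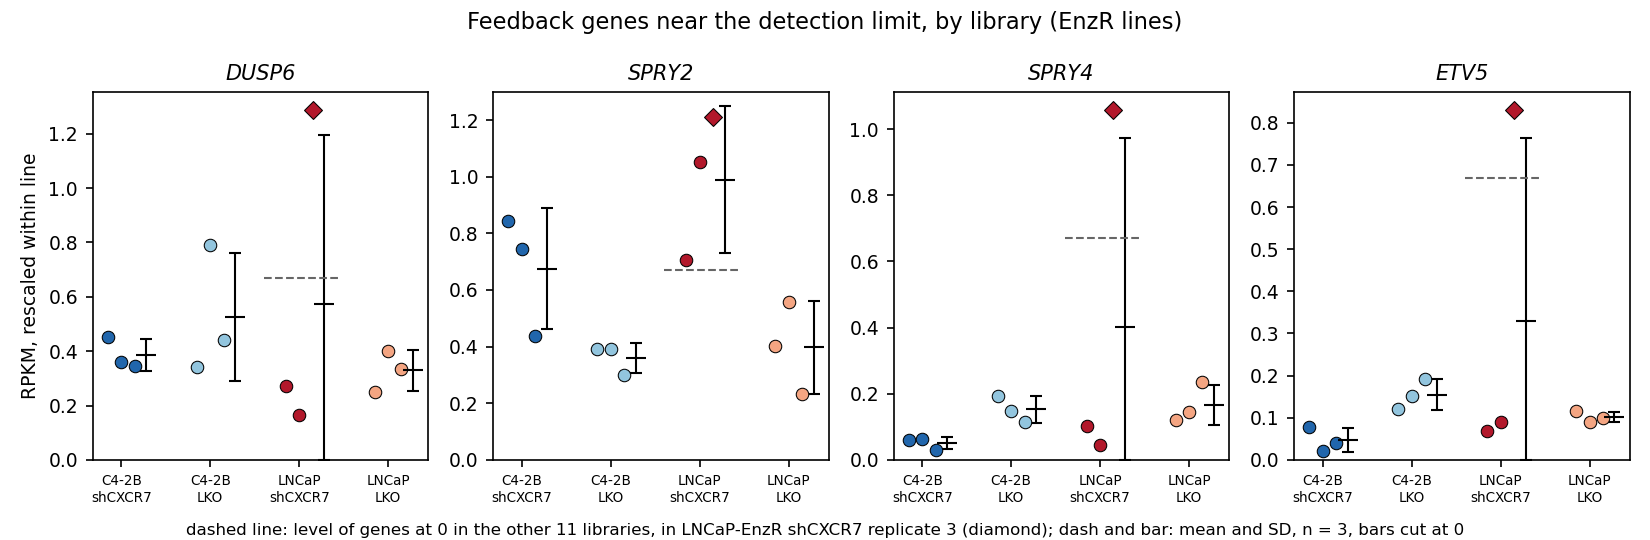
Rescaled RPKM of the 4 feedback genes near the detection limit, with 1 point per library and the mean and SD (n = 3) beside each group, shCXCR7 left of LKO in each line. The dashed line at 0.670 is the median of genes at 0 in the other 11 libraries, drawn for LNCaP-EnzR shCXCR7 replicate 3 (diamond), which is the highest point in every panel.

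The control libraries of the lines, which were kept at different enzalutamide doses, differed in most of these genes. On values scaled over all 12 libraries, control C4-2B-EnzR cells were higher than control LNCaP-EnzR cells in 5 of the 6 feedback genes tested (where 33.0% of 13286 genes were called higher) and lower in 1 (where 32.0% were called lower). ETV4, one of the 5, passed the filter only through C4-2B-EnzR LKO libraries. It could thus enter only as higher there, and its direction adds nothing to the count. ETV4 averaged 1.59 ± 0.195 RPKM in C4-2B-EnzR LKO libraries and 0.118 ± 0.038 in LNCaP-EnzR LKO libraries (SD, n = 3 each), a log2 fold change of 2.32 ± 0.18 (SE, adjusted p = 2.06e-05). SPRY1 averaged 3.95 ± 0.80 RPKM in C4-2B-EnzR and 0.743 ± 0.112 in LNCaP-EnzR LKO libraries, a log2 fold change of 2.07 ± 0.17. SPRED2 was higher by 1.54 ± 0.12, SPRED1 by 1.5 ± 0.15 and DUSP5 by 0.52 ± 0.16 on the log2 scale. DUSP4 was the exception, with 0.745 ± 0.095 RPKM in C4-2B-EnzR and 3.49 ± 0.405 in LNCaP-EnzR LKO libraries (-1.91 ± 0.14, adjusted p = 1.51e-05). With factors set within each line instead, 6541 genes were called higher and 2570 lower, against 4387 and 4249, and the median of all genes shifted by 0.28, while the 6 feedback genes kept their direction and call. The DUSP5 call was lost without LNCaP-EnzR LKO replicate 2 or C4-2B-EnzR LKO replicate 2 or 3 (adjusted p up to 0.071), and in 1 fit of all 12 libraries (adjusted p = 0.12).

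Levels can be compared between genes because RPKM is per length. In C4-2B-EnzR LKO libraries the order of mean rescaled RPKM was SPRED2 (9.01 ± 0.57), SPRY1 (4.38 ± 0.88), SPRED1 (3.39 ± 0.38), DUSP5 (1.98 ± 0.10), ETV4 (1.76 ± 0.21) and DUSP4 (0.826 ± 0.103; SD, n = 3), with DUSP6, SPRY2, ETV5 and SPRY4 below 0.6. DUSP5 and ETV4 lay within their spread of each other. The SDs of SPRY1 and SPRED1 overlapped, though every SPRY1 value (lowest 3.822) was above every SPRED1 value (highest 3.739). In LNCaP-EnzR LKO libraries DUSP4 (3.17 ± 0.37) and SPRED2 (2.40 ± 0.35) led, followed by DUSP5 (1.08 ± 0.23), SPRED1 (0.837 ± 0.149) and SPRY1 (0.674 ± 0.10), and DUSP5, SPRED1 and SPRY1 each lay within the spread of the next.

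The genes whose pattern over the 12 libraries was most like that of a feedback gene were found by the root mean square difference of log2 values, each line centred on its LKO mean, among 12482 genes. For DUSP4 they were BMP6 (0.159), PFKFB2 (0.168) and DUSP2 (0.188). For SPRY1 they were RHEBL1 (0.209), HELLS (0.223) and DBF4B (0.224), and for SPRED1 HK2 (0.108), REPS2 (0.111) and TRAF2 (0.112). DUSP2, like DUSP4 a nuclear phosphatase, had 4.51, 4.54 and 6.51 rescaled RPKM in LNCaP-EnzR shCXCR7 libraries, against 11.3, 10.8 and 11.8 in LKO libraries. Among the relatives of the feedback genes tested here, DUSP2 was the one that fell in both lines.

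Among relatives of the feedback genes, more were called higher than lower in each line. Of 10 other DUSP, SPRY, SPRED and ETV genes, 7 were tested in C4-2B-EnzR cells, with 4 called higher and 1 lower (median log2 fold change 0.52), and 9 in LNCaP-EnzR cells, with 5 higher and 1 lower (median 0.42). For these and the next lists, the shares of all genes tested were 21.2% higher and 21.3% lower in C4-2B-EnzR cells, and 19.4% higher and 21.3% lower in LNCaP-EnzR cells. DUSP1, DUSP8, DUSP10 and DUSP16, phosphatases known mainly for JNK and p38, rose in both lines. DUSP10 had 8.79, 9.04 and 10.2 rescaled RPKM in C4-2B-EnzR shCXCR7 libraries, against 6.89, 5.50 and 5.63 in LKO libraries, a log2 fold change of 0.62 ± 0.11 (SE, adjusted p = 0.00302). In LNCaP-EnzR cells it had 8.09, 7.34 and 7.54 in shCXCR7 libraries, against 3.35, 3.34 and 3.33 in LKO libraries (1.14 ± 0.08, adjusted p = 5.33e-06). The shCXCR7 libraries lay above the LKO libraries in each line. DUSP1, an immediate early phosphatase, had log2 fold changes of 0.71 ± 0.09 for C4-2B-EnzR and 0.61 ± 0.09 for LNCaP-EnzR. DUSP8 had 0.80 ± 0.12 and 0.89 ± 0.16, and DUSP16 had 0.52 ± 0.07 and 0.42 ± 0.10, in the same order of lines. DUSP2 had log2 fold changes of -0.44 ± 0.11 for C4-2B-EnzR and -1.11 ± 0.13 for LNCaP-EnzR. On values as deposited, where the median of all genes in LNCaP-EnzR cells stood at -0.31, the genes of this and the next lists given as changed in both lines kept their direction, but only DUSP2 and CCND1 stayed called in LNCaP-EnzR cells.

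Upstream of ERK, more receptors and ligands were called higher than lower. Of 20 listed genes, 13 were tested in C4-2B-EnzR cells, with 6 called higher and 3 lower (median log2 fold change 0.34), and 10 in LNCaP-EnzR cells, with 6 called, all higher (median 0.41). The 3 of 13 lower in C4-2B-EnzR cells is a share near the 21.3% of all genes. The receptors ERBB2 and FGFR1 and the ligands HBEGF and EGF rose in both lines. EGF was low, and in C4-2B-EnzR cells it passed the filter only through shCXCR7 libraries, so it could enter only as higher. It had 0.711 to 0.846 rescaled RPKM in these, against 0.269 to 0.332 in LKO libraries. In LNCaP-EnzR cells it had 0.776 to 1.456 in shCXCR7 libraries, against 0.322 to 0.641 in LKO libraries, so the filter favoured a rise there too. IGF1, one of the genes called lower in C4-2B-EnzR cells, passed only through LKO libraries and could enter only as lower. It had 0.2569 to 0.311 in shCXCR7 libraries, against 0.6435 to 0.7389 in LKO libraries. IGF1R passed there only through shCXCR7 libraries and was not called. The directions of these genes add nothing to the counts. ERBB2 had 137, 130 and 140 rescaled RPKM in C4-2B-EnzR shCXCR7 libraries, against 123, 107 and 94.9 in LKO libraries (log2 fold change 0.34 ± 0.10, SE), and this call was lost with quantile normalization. In LNCaP-EnzR cells it had 55.3, 60.9 and 49.2 in shCXCR7 libraries, against 35.6, 34.3 and 32.8 in LKO libraries (0.68 ± 0.09). Log2 fold changes for C4-2B-EnzR and LNCaP-EnzR cells were 0.66 ± 0.12 and 0.85 ± 0.13 for FGFR1, 0.86 ± 0.15 and 0.36 ± 0.10 for HBEGF, and 0.88 ± 0.20 and 0.98 ± 0.34 for EGF. The LNCaP-EnzR calls of HBEGF and EGF were lost with quantile normalization. MET, the receptor of hepatocyte growth factor, passed the filter in C4-2B-EnzR cells only and had 1.25, 1.34 and 1.09 in shCXCR7 libraries, against 3.14, 3.57 and 2.94 in LKO libraries (-1.23 ± 0.13, adjusted p = 0.000279). EGFR had a log2 fold change of -0.04 ± 0.13 for C4-2B-EnzR and rose in LNCaP-EnzR cells (0.67 ± 0.17, adjusted p = 0.0118), though not with quantile normalization.

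Of 20 adaptors, RAS proteins and RAS regulators, 19 were tested in each line, with 2 higher and 4 lower in C4-2B-EnzR cells (median log2 fold change -0.08) and 5 higher and 6 lower in LNCaP-EnzR cells (median 0.11). The 4 of 19 lower in C4-2B-EnzR cells is a share near the 21.3% of all genes, and nothing is read from these counts. The values that follow are log2 fold changes with their standard errors, for C4-2B-EnzR and then LNCaP-EnzR cells. GRB2, the adaptor that brings SOS to receptors, fell in both lines (-0.52 ± 0.08 and -0.60 ± 0.07). NF1, the RAS inhibitor that SPRED proteins recruit, fell too (-0.49 ± 0.10 and -0.28 ± 0.08), and RASA2, another RAS inhibitor, rose (0.53 ± 0.09 and 0.48 ± 0.14). Of 16 kinases and scaffolds, 3 of 14 tested were called higher and 2 lower in C4-2B-EnzR cells (median -0.01), and 2 of 15 higher and 2 lower in LNCaP-EnzR cells (median 0.05). MAPK3 (0.03 ± 0.07 and -0.12 ± 0.08) was not called in either line, nor were ARAF and BRAF (all 3 named after their values were seen). The MEK genes were each called in 1 line. MAP2K1 (-0.08 ± 0.09 and -0.36 ± 0.08) was lower in LNCaP-EnzR cells, and MAP2K2 (0.38 ± 0.07 and 0.09 ± 0.09) was higher in C4-2B-EnzR cells. Their calls under other settings are not reported here. The scaffolds LAMTOR3 (0.71 ± 0.13 and 0.48 ± 0.09) and IQGAP1 (0.46 ± 0.08 and 0.49 ± 0.09) rose in both lines, and the ERK substrate kinase RPS6KA1 fell (-0.40 ± 0.08 and -0.27 ± 0.09). In LNCaP-EnzR cells the calls of RASA2 and RPS6KA1 were lost with quantile normalization.

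**Figure D4:**
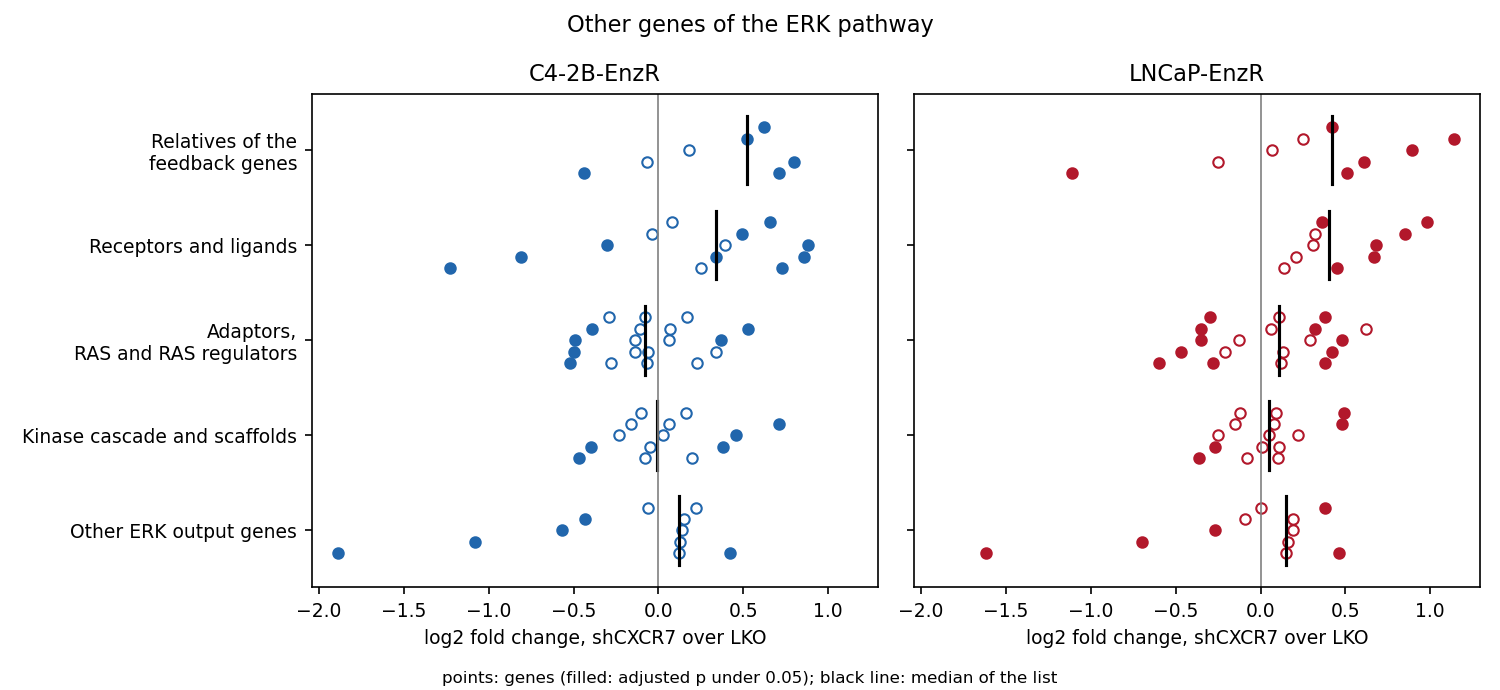
Log2 fold change of shCXCR7 over LKO for the tested genes of 5 lists of the ERK pathway in C4-2B-EnzR (left) and LNCaP-EnzR cells (right); filled points have an adjusted p under 0.05 and black lines are list medians. Relatives of the feedback genes have medians of 0.52 and 0.42, kinases and scaffolds of -0.01 and 0.05, and the lowest point of each panel is CCND1.

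A further list of 18 genes was set up as other outputs of ERK. It also held the transcription factors CIC, ERF, ELK1, ELK3 and ELK4, so its counts and medians do not measure ERK output alone. In each line 11 were tested, with 1 higher and 4 lower in C4-2B-EnzR cells (median log2 fold change 0.12) and 2 higher and 3 lower in LNCaP-EnzR cells (median 0.15). Of all genes tested, 21.2% were higher and 21.3% lower in C4-2B-EnzR cells, and 19.4% and 21.3% in LNCaP-EnzR cells. CCND1, which encodes cyclin D1 and is also driven by other pathways, had 28.5, 27.0 and 29.4 rescaled RPKM in C4-2B-EnzR shCXCR7 libraries, against 104.9, 106.9 and 104.1 in LKO libraries. In LNCaP-EnzR cells it had 22.5, 22.1 and 21.3 in shCXCR7 libraries, against 66.8, 66.7 and 70.3 in LKO libraries. The groups were far apart in both lines, with log2 fold changes of -1.89 ± 0.06 for C4-2B-EnzR and -1.62 ± 0.07 for LNCaP-EnzR. The cytokine LIF (-1.08 ± 0.22 and -0.70 ± 0.15, in the same order) and the ETS factor ELK4 (-0.43 ± 0.09 and -0.27 ± 0.08) also fell in both lines. PHLDA1 fell in C4-2B-EnzR cells (-0.57 ± 0.19, adjusted p = 0.0462), the line in which it passed the filter, though it was not called as deposited or with quantile normalization. Other genes of the list rose in 1 line. HMGA1 was higher in C4-2B-EnzR cells (0.42 ± 0.08, adjusted p = 0.00445). CIC (0.46 ± 0.07, adjusted p = 0.000986) and ERF (0.38 ± 0.09, adjusted p = 0.00866) were higher in LNCaP-EnzR cells. Calls of these 3 under other settings are not reported here. In bulk RNA, fewer cells of a type and less RNA per cell cannot be told apart.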

How the data were processed

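RNA of 12 samples was made into NEBNext Ultra libraries and sequenced single-end by the authors. STAR and hg38 come from the submitters' processing notes. The authors deposited RPKM values per gene, for which the study's methods name an in-house script, so library size and gene length were already divided out. In the sources used here, the annotation, the strand setting and which of the study's CXCR7 hairpins served for RNA-Seq were not given. Of 26475 lines, 32 empty ones and 2 repeats of a symbol were dropped, and 0 columns were left unmapped.

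Values were divided by median-of-ratios factors within each line (over all 12 libraries for the control lines), filtered, and fitted as log2(value + 0.25) with limma 3.58.1 in R 4.3.3 (empirical Bayes with a variance trend), two-sided, with Benjamini-Hochberg adjustment over all genes tested. The difference between lines was an interaction term. Whole reads, within 0.02 reads, were recovered for 25029 of 25030 genes above 0. Both steps were tested on simulated data. For the fits, these held no library with raised background, and only genes with enough expected reads were changed. That test therefore does not speak of LNCaP-EnzR shCXCR7 replicate 3 or of genes with few reads. Between replicates, chi-square per degree of freedom was 1.63 to 19.8, so all libraries were kept as separate. It was highest for pairs with LNCaP-EnzR shCXCR7 replicate 3 (18.33 and 19.79). C4-2B-EnzR LKO replicate 1 also stood off, with 13.02 against replicate 3 and 6.494 against replicate 2. The remaining pairs had 1.627 to 3.655. Sequences came from RefSeq and positions from GENCODE 44.

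The feedback genes and the pathway lists were chosen with earlier results of these data known. Named genes were all 10 feedback genes, ACKR3, list genes called the same way in both lines, otherwise up to 4 per list and line with the smallest adjusted p, and the 3 genes most like a feedback gene. Some list genes that the rule names are not reported here. Alternatives were other scalings, pseudocounts, filters and variance models, a replicate block, each library left out, background subtracted from LNCaP-EnzR shCXCR7 replicate 3, voom on recovered reads, and a call at 2-fold and adjusted p under 0.001.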

Additional observations from a re-analysis of the deposited data

Results flagged for a closer look

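The response to shCXCR7 differed between the lines, by the interaction term (C4-2B-EnzR minus LNCaP-EnzR, limma with Benjamini-Hochberg adjustment), for 8 of the named genes. Of all 12482 genes tested, 13.9% were called. Nothing is read from the count of 8, since EGFR and ERBB3 were named for a call in 1 line only, which favours such a difference. Among the feedback genes, those called were SPRY1 (-1.48 ± 0.32 on the log2 scale, SE, adjusted p = 0.00939) and DUSP4 (0.96 ± 0.29, adjusted p = 0.0424). The targeted gene ACKR3 fell further in C4-2B-EnzR cells (-0.73 ± 0.14, adjusted p = 0.00574), and so did CCND1 (-0.27 ± 0.08, adjusted p = 0.0463). DUSP2 fell less in C4-2B-EnzR cells (0.67 ± 0.18, adjusted p = 0.029), and DUSP10 rose less (-0.52 ± 0.13, adjusted p = 0.0204). EGFR (-0.71 ± 0.21, adjusted p = 0.0371) and ERBB3, the kinase-poor partner of ERBB2 (-0.44 ± 0.09, adjusted p = 0.00661), differed too, with ERBB3 at -0.30 ± 0.06 in C4-2B-EnzR and 0.14 ± 0.07 in LNCaP-EnzR cells. Line and enzalutamide dose cannot be told apart in these differences. Groups of 3 libraries were not examined for single outlying values.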

How the results depend on the processing

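Counts of feedback genes called in LNCaP-EnzR cells (1 of 6) were 0 at 2-fold and adjusted p under 0.001, 2 as deposited, with quantile normalization or with robust moderation, and 3 with no variance trend, in 1 fit of all 12 libraries, after background subtraction or with voom. Leaving out each library gave 1 to 4 (4 without shCXCR7 replicate 3, otherwise 1). In C4-2B-EnzR cells (4 of 6) the stricter rule gave 1 and the other settings 3 to 5. For the difference between lines (2 of 5), the stricter rule and values as deposited gave 0 (a filter at 1 RPKM also gave 0, but SPRY1 and DUSP4 did not pass it and were not tested), and quantile normalization, a pseudocount of 0.05 and no filter gave 1. Leaving out each library gave 1 to 2 (2 without LNCaP-EnzR shCXCR7 replicate 3 or C4-2B-EnzR LKO replicate 1). Values as deposited shifted the median of all genes by -0.31 in LNCaP-EnzR cells and 0.36 in the difference, and called 236 genes higher and 371 lower in LNCaP-EnzR cells (2532 and 2785 after rescaling), ACKR3 not among them (adjusted p = 0.112). Added after seeing the data, no filter gave in LNCaP-EnzR cells 2 with background subtraction and 3 without shCXCR7 replicate 3, and with voom 1 for the difference.

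With the replicate block, 1, 3 and 1 feedback genes were called in LNCaP-EnzR cells, C4-2B-EnzR cells and the difference, and 564 genes in all had a more positive difference, against 866 without it. Deviations of same-numbered libraries correlated from -0.11 to 0.06 and of others from -0.146 to 0.095, and not every library correlated best with its own number. With groups of 3 libraries, some of which stood off, this cannot decide whether same-numbered libraries share more than a number.

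Directions turned in results that were not called, and in CCND1. As deposited, the log2 value was 0.21 for the DUSP5 difference, 0.02 for SPRED1, 0.12 for SPRED2 and 0.11 for CCND1 (called after rescaling), and -0.07 for SPRY1, -0.29 for SPRED2 and -0.19 for ERBB3 in LNCaP-EnzR cells. With quantile normalization it was 0.61 and 0.45 for the DUSP5 and SPRED1 differences, -0.39 and -0.12 for SPRY1 and SPRED2 in LNCaP-EnzR cells and 0.01 for EGFR in C4-2B-EnzR cells. With background subtracted, with and without the filter, it was 0.19 and 0.30 for the DUSP5 and SPRED1 differences and -0.04 and -0.06 for SPRY1 and SPRED2 in LNCaP-EnzR cells. With no filter and without shCXCR7 replicate 3 it was 0.27 for the DUSP5 difference, and -0.05 for SPRY1 and -0.02 for SPRED2 in LNCaP-EnzR cells. Leaving out each library gave -0.38 to 0.27 for the DUSP5 difference, -0.05 to 0.35 for SPRY1 and -0.09 to 0.10 for SPRED2 in LNCaP-EnzR cells, and -0.17 to 0.05 for EGFR in C4-2B-EnzR cells. The cause was not tested.

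Depth limits DUSP6, SPRY2, SPRY4 and ETV5, and ETV4 in LNCaP-EnzR cells, which had few reads.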
